A study of Mus musculus with 6 samples.

Results

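Counts of 8 genes of the dystrophin complex and of membrane repair were followed in gastrocnemius muscle of old mice given inotodiol or vehicle. The genes were chosen by symbol from 23282 rows of the gene tables. They are Dmd, Utrn, Dag1, Sgca, Sgcb, Sgcd, Dysf and Cav3, and each symbol had 1 row. All 8 passed the filter on low counts, as did 11700 genes in all. Each group held 3 wild-type C57/BL6J males aged 20 months, and the labels call them biological replicates. Inotodiol, a triterpenoid of the chaga mushroom, was given by mouth each day for 10 weeks at 0.35 mg/kg. Control mice received the solvent, which was made of 40% polyethylene glycol, 5% Tween 80 and 0.9% saline. The series title names the loss of muscle with age, mitochondria and the nuclear receptor LXR beta. The comparison asks how these muscle genes differ between old mice given inotodiol and old mice given vehicle.

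The dystrophin complex ties the actin skeleton of the muscle fibre to the basement membrane outside it. Dystrophin binds actin inside the cell, dystroglycan crosses the membrane and binds laminin, and the sarcoglycans form a side complex that holds the assembly in place. Utrophin is the autosomal homologue of dystrophin and is concentrated at neuromuscular junctions and in regenerating fibres. Dysferlin is a calcium-binding membrane protein needed to reseal torn membrane, and caveolin 3 is the scaffold of muscle caveolae. Loss of most of these proteins causes muscular dystrophies.

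Libraries held from 8961893 to 9953764 counts. The labelled tissue was checked against 10 genes of mature fibres, such as Acta1 and Ckm, and none of them was at 0 in all libraries. Together they took from 155437 to 166892 unscaled CPM (counts per 1000000 counts of the library) in vehicle and from 152935 to 158251 in inotodiol libraries. The 10 endothelial genes took 128 to 174 and 136 to 168 unscaled CPM in the same order of groups. The 8 fibroblast genes took 1086 to 2096 and 930.2 to 1213 unscaled CPM, with the highest value in vehicle 3. The 24 hepatocyte genes took 85.4 to 162 unscaled CPM in vehicle and 194 to 1021 in inotodiol libraries, so the groups did not overlap. The 15 genes of the exocrine pancreas summed to 125 unscaled CPM in inotodiol 1, and no other library passed 2.92. Without inotodiol replicate 1 the log2 fold change was 0.067 for Dmd, 0.068 for Utrn, -0.18 for Sgcb and 0.14 for Sgcd, beside the values below. The part that any of these cells had in the values below was not tested. In bulk muscle, fewer cells of a type and less RNA per cell cannot be told apart.

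The tables hold 1 count per gene symbol, so transcripts that start at different places are summed. This matters for Dmd, which has a pair of start sites in the RefSeq promoter table. The upstream one gives the full-length protein, and the other lies far inside the gene and gives short dystrophins. The 250 bases before each start are printed because the count cannot separate them, and those of Cav3 because its window alone among the members holds CAGCTG, an E-box form. All 8 members matched the RefSeq table (build GRCm38.p6), with 11 windows in all. The windows of Utrn, Sgcd, the internal Dmd start and the downstream Dysf start lie inside the gene's annotated span, so for Utrn and Sgcd the bases before the outermost annotated start were not searched. Each sequence runs 5′ to 3′ on the gene's own strand. Capitals in the upstream Dmd window mark matches to the MEF2 motif, the CArG box, TATAAA and CANNTG, and capitals in the Cav3 window mark CANNTG.
Dmd upstream start, chrX:82948620-82948869, plus strand: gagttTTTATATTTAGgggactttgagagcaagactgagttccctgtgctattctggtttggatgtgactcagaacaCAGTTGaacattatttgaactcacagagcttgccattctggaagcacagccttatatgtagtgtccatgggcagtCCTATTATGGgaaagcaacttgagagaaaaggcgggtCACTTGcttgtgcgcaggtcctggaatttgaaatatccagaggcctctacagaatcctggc
Dmd internal start, chrX:85048045-85048294, plus strand: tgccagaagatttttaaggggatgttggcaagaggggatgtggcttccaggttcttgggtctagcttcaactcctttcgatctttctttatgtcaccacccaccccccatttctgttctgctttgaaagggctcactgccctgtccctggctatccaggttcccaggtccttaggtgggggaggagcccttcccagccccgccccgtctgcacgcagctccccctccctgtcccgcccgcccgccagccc
Cav3 start, chr6:112459255-112459504, plus strand: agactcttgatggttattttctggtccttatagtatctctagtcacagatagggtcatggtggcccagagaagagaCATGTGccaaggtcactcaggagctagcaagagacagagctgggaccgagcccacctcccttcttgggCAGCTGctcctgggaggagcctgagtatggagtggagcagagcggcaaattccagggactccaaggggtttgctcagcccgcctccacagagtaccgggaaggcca

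Motifs were searched on both strands. The MEF2 motif, the site of a family of muscle transcription factors, matched in the upstream Dmd window alone among the 11, against 2.92% of all 32851 windows. The same window was the 1 member window with a CArG box, the site of serum response factor, against 1.47% of all windows. Its MEF2 match spans bases -244 to -235 counted from the start and overlaps a reverse match to TATAAA. The CArG match spans bases -98 to -89. CANNTG, the E-box of myogenic factors, was in 7 of 11 member windows and in 66.2% of all windows. CAGCTG was in 1 member window, that of Cav3, against 13.0% of all windows. GGGCGG was in 6 of 11 member windows, the internal Dmd window included, against 32.7% of all windows. The Dag1 windows overlap and share their GGGCGG and CANNTG matches, so these counts of windows include the same bases more than once. The GC content was 45.2% in the upstream and 60.0% in the internal Dmd window, with a median of 52.4% over all windows. A direct repeat of AGGTCA with 4 bases between its copies, the kind of element known to bind liver X receptors, matched in 0 member windows and in 0.0152% of all windows. A match to letters is a description of the sequence and no evidence of binding in this muscle.

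None of the 8 genes differed between inotodiol and vehicle in edgeR's quasi-likelihood test at an adjusted p under 0.05, where 0 of 11700 genes (0%) passed. The smallest adjusted p was 0.96 among the members and 0.58 over all genes. Unadjusted p-values under 0.05 were found for 0 of 8 members, against 4.87% of all genes tested (2.67% higher and 2.21% lower). DESeq2 and limma-voom also called 0 members, with 0 at an unadjusted p under 0.05 in either. The 2 groups overlapped for all 8 genes, whereas they did not for 10.4% of all genes tested (5.15% higher and 5.26% lower). On the log2 fold scale, 5 members lay above 0 and 3 below, with a median of 0.023 against -0.00073 over all genes. When libraries were scaled by their totals, not by TMM (a trimmed mean of gene-wise ratios), all 8 lay below 0, with a median of -0.094. That scaling moved the median of all genes to -0.12. The 5 members that changed sign did so with a shift common to all genes. A p that misses the threshold does not show equal levels, so each gene is given with its interval.

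**Figure D1:**
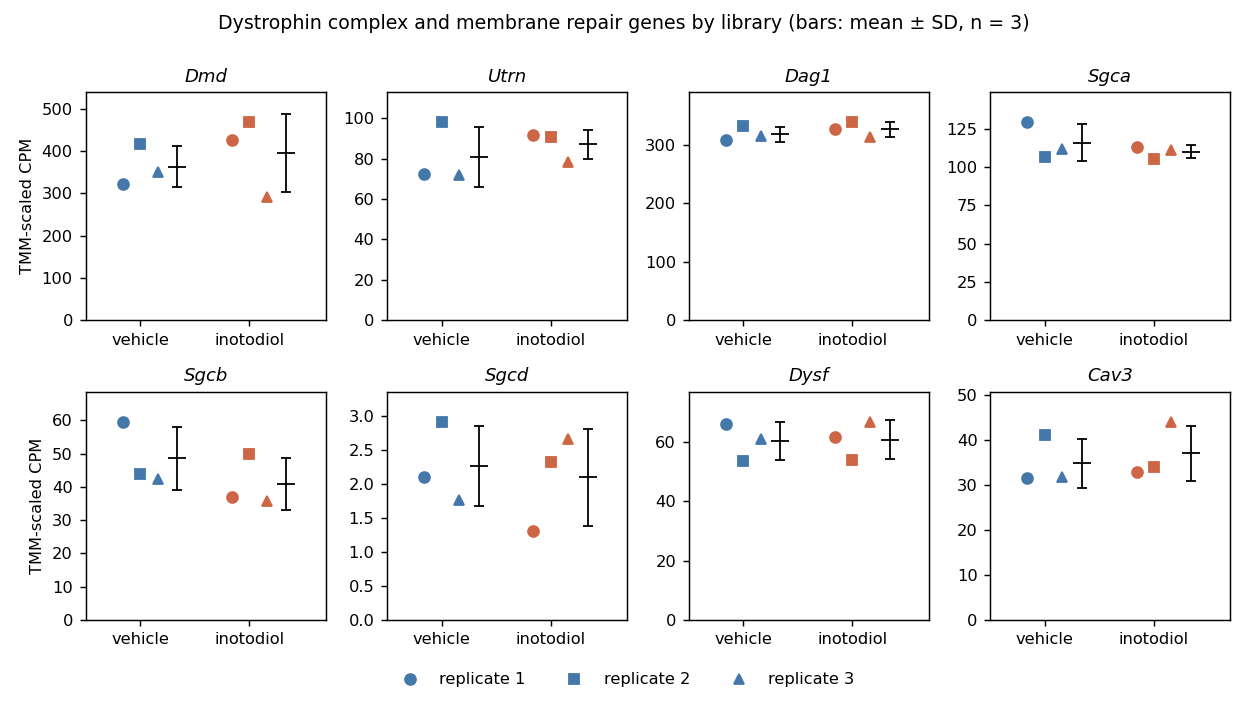
TMM-scaled CPM of the 8 genes in each library, vehicle in blue and inotodiol in orange, with the shape giving the replicate number and the black bars the mean ± SD of 3 libraries. In every panel the groups overlap, and Dag1 spans only 307 to 339 CPM.

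Dystrophin and utrophin, the actin-binding members, both had slightly higher means with inotodiol than with vehicle. Dmd (chromosome X, 82948870 to 85206141) spans 2257 kb in 79 exons. Its TMM-scaled CPM in replicates 1 to 3, the order used throughout, was 323, 416 and 350.0 with vehicle and 427, 468 and 292 with inotodiol. The highest and the lowest library were both inotodiol libraries, so the vehicle values lay inside the range of the treated ones. The means were 363 ± 48.1 and 396 ± 92.1 CPM (SD, n = 3). The log2 fold change was 0.13 ± 0.17 (SE), and the 95% interval runs from 0.848-fold to 1.40-fold (adjusted p 0.99 in edgeR). Without inotodiol replicate 2 the log2 fold change was -0.013, and without inotodiol replicate 3 it was 0.30.

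Utrn (chromosome 10, 12382188 to 12869365) had 72.5, 98.1 and 72.0 TMM-scaled CPM in vehicle and 91.8, 90.9 and 78.6 in inotodiol libraries. Vehicle 2 was the highest library of all, and the other vehicle libraries were the lowest. The means were 80.9 ± 15.0 and 87.1 ± 7.37 CPM (SD, n = 3). The log2 fold change was 0.11 ± 0.16, with a 95% interval from 0.846-fold to 1.37-fold (adjusted p 0.99 in edgeR). It was 0.28 without vehicle replicate 2, the highest library, and 0.030 without vehicle replicate 3, the lowest. The 9 genes of the neuromuscular junction that were tested had 6 log2 fold changes above 0, 3 below and none called. Those of the regenerating fibre and stem cell list had 4 above 0 and 1 below, with a median of 0.43 and none called. Unadjusted p-values under 0.05 in edgeR numbered 1 of 9 in the junction list, for a gene that was lower with inotodiol. In the regenerating list they numbered 2 of 5, with 1 higher and 1 lower. The share over all genes tested was 4.87%.

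Dmd and Utrn were high in the same 3 libraries, vehicle 2, inotodiol 1 and inotodiol 2, and low in vehicle 1, vehicle 3 and inotodiol 3. The share of Rn45s, the ribosomal RNA precursor, was 6.82%, 10.2% and 9.56% in the first 3 and 3.97%, 4.38% and 4.33% in the others. The genes of the regenerating fibre list, which is mostly the perinatal myosin Myh8, took 361, 429 and 400.0 unscaled CPM in the first 3 and 255, 268 and 223 in the others. The 3 libraries that were high in Dmd and Utrn were thus high in both of these measures, and each set of 3 held libraries of both treatments. The part of either in the levels of Dmd and Utrn was not tested. In unscaled CPM the same 3 libraries were the highest for both genes. Dag1 was also highest in these 3 libraries after TMM scaling, by far smaller steps, but not in unscaled CPM, where inotodiol 1 was its lowest library at 302 CPM.

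The ratio of Utrn to Dmd counts within a library does not depend on how libraries are scaled. It was 0.225, 0.236 and 0.206 in vehicle and 0.215, 0.194 and 0.269 in inotodiol libraries. The lowest and the highest ratio were again both in the treated group. The mean log2 ratio was -2.17 ± 0.10 in vehicle and -2.16 ± 0.24 in inotodiol muscle (SD, n = 3). The difference of 0.014 had p = 1 in a two-sided exact permutation test, where 20 splits allow a smallest p of 0.1. The difference was smaller than the SD of either group.

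**Figure D2:**
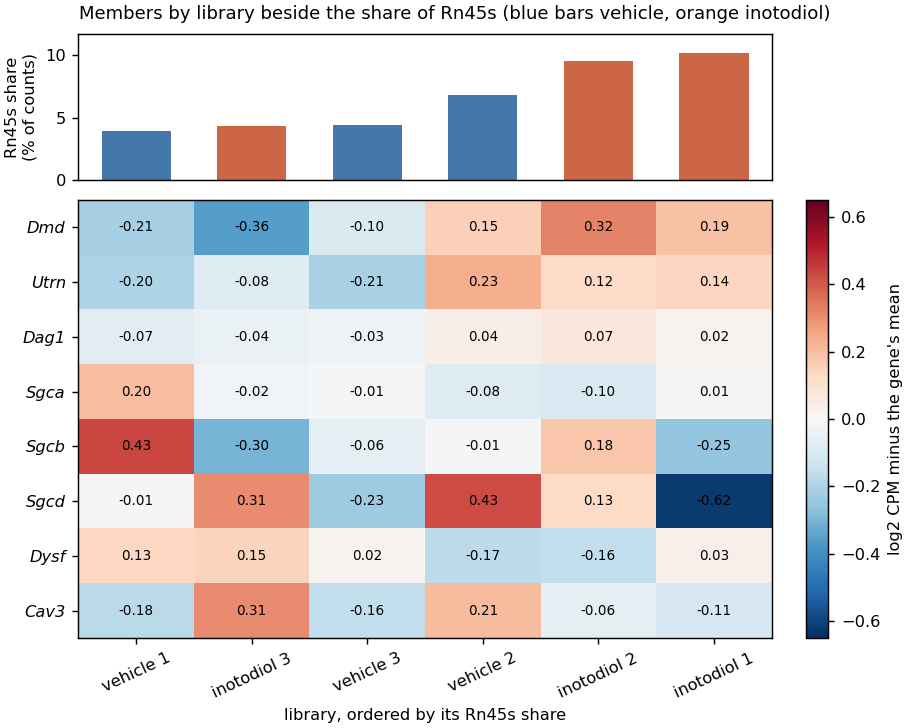
Upper panel, share of counts taken by Rn45s in each library (percent), ordered from the lowest to the highest; lower panel, log2 CPM of each gene minus its own mean over the 6 libraries, written in each cell. The 3 libraries at the right, with 6.82% to 10.2% Rn45s, are those in which Dmd, Utrn and, by small steps, Dag1 lie above their means; Sgca, Sgcb, Sgcd, Dysf and Cav3 follow other orders.

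Dystroglycan was the steadiest of the 8 genes. Dag1 (chromosome 9, 108204634 to 108263958) encodes the precursor of both dystroglycan subunits. It had 307, 332 and 315 TMM-scaled CPM in vehicle and 327, 339 and 313 in inotodiol libraries. The highest library was only 1.10 times the lowest. Its coefficient of variation over the 6 libraries was 3.79%, where counting error alone gives 1.81%. The means were 318 ± 12.6 and 326 ± 12.8 CPM (SD, n = 3), with a log2 fold change of 0.036 ± 0.12 (adjusted p 1.0 in edgeR). The 95% interval, 0.861-fold to 1.22-fold, is the narrowest of the 8. For comparison, 89.5% of all genes tested had a larger absolute log2 fold change.

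The sarcoglycans among the members all had lower means with inotodiol, within the spread of the libraries. Sgca (chromosome 11, 94962791 to 94976327), which encodes the alpha subunit, had 129, 106 and 112 TMM-scaled CPM in vehicle and 113, 105 and 111 in inotodiol libraries. Vehicle 1 stood above the others, which lay between 105 and 113 CPM. The means were 116 ± 12.0 and 110.1 ± 4.28 CPM (SD, n = 3). Its log2 fold change was -0.075 ± 0.14, with a 95% interval from 0.774-fold to 1.17-fold (adjusted p 0.99 in edgeR). Without vehicle replicate 1 it was 0.011.

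Sgcb (chromosome 5, 73632749 to 73647790), the beta subunit, had 59.5, 43.8 and 42.3 TMM-scaled CPM in vehicle and 37.0, 49.9 and 35.7 in inotodiol libraries. Inotodiol 1 and 3 were the lowest libraries, and inotodiol 2 was above vehicle 2 and 3. The means were 48.6 ± 9.51 and 40.9 ± 7.88 CPM (SD, n = 3). The log2 fold change was -0.25 ± 0.19, with a 95% interval from 0.630-fold to 1.12-fold (unadjusted p 0.22, adjusted p 0.96 in edgeR). It was -0.077 without vehicle replicate 1, the highest library, and -0.42 without inotodiol replicate 2. A larger absolute log2 fold change was found in 41.2% of all genes tested.

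Sgcd (chromosome 11, 46896253 to 47988969), the delta subunit, was close to the floor of detection. It had 20, 27 and 18 counts in vehicle and 12, 21 and 26 in inotodiol libraries. Its coefficient of variation over the 6 libraries was 27.1%, where counting error alone gives 22.0%. The fitted log2 fold change was -0.11 ± 0.61, and the 95% interval runs from 0.376-fold to 2.30-fold (adjusted p 1.0 in edgeR). A difference of the size seen for the other members was not detectable at this depth. Without vehicle replicate 2 the log2 fold change was 0.12, and without inotodiol replicate 1 it was 0.14.

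Dysferlin and caveolin 3, the members outside the dystrophin complex, had group means that differed by less than their SDs. Dysf (chromosome 6, 84008590 to 84211060) had 66.2, 53.7 and 61.2 TMM-scaled CPM in vehicle and 61.7, 53.9 and 66.8 in inotodiol libraries. The lowest, middle and highest libraries of the groups thus lay within 1 CPM of each other. The means were 60.4 ± 6.33 and 60.8 ± 6.49 CPM (SD, n = 3). The fitted log2 fold change was 0.011 ± 0.16, with a 95% interval from 0.796-fold to 1.28-fold (adjusted p 1.0 in edgeR), and 96.8% of all genes tested had a larger absolute value.

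Cav3 (chromosome 6, 112459505 to 112472872) had 31.5, 41.1 and 31.8 TMM-scaled CPM in vehicle and 33.0, 34.1 and 44.1 in inotodiol libraries. In each group 1 library stood above the other 2, vehicle 2 and inotodiol 3. The means were 34.8 ± 5.47 and 37.0 ± 6.11 CPM (SD, n = 3). Its log2 fold change was 0.090 ± 0.19, with a 95% interval from 0.803-fold to 1.41-fold (adjusted p 0.99 in edgeR). Without inotodiol replicate 3 it was -0.055, and without vehicle replicate 2 it was 0.23. The ratio of Dysf to Cav3 counts was 2.10, 1.30 and 1.92 in vehicle and 1.87, 1.58 and 1.52 in inotodiol libraries. The difference in its log2 was -0.077, with p = 0.8 in the same exact permutation test.

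**Figure D3:**
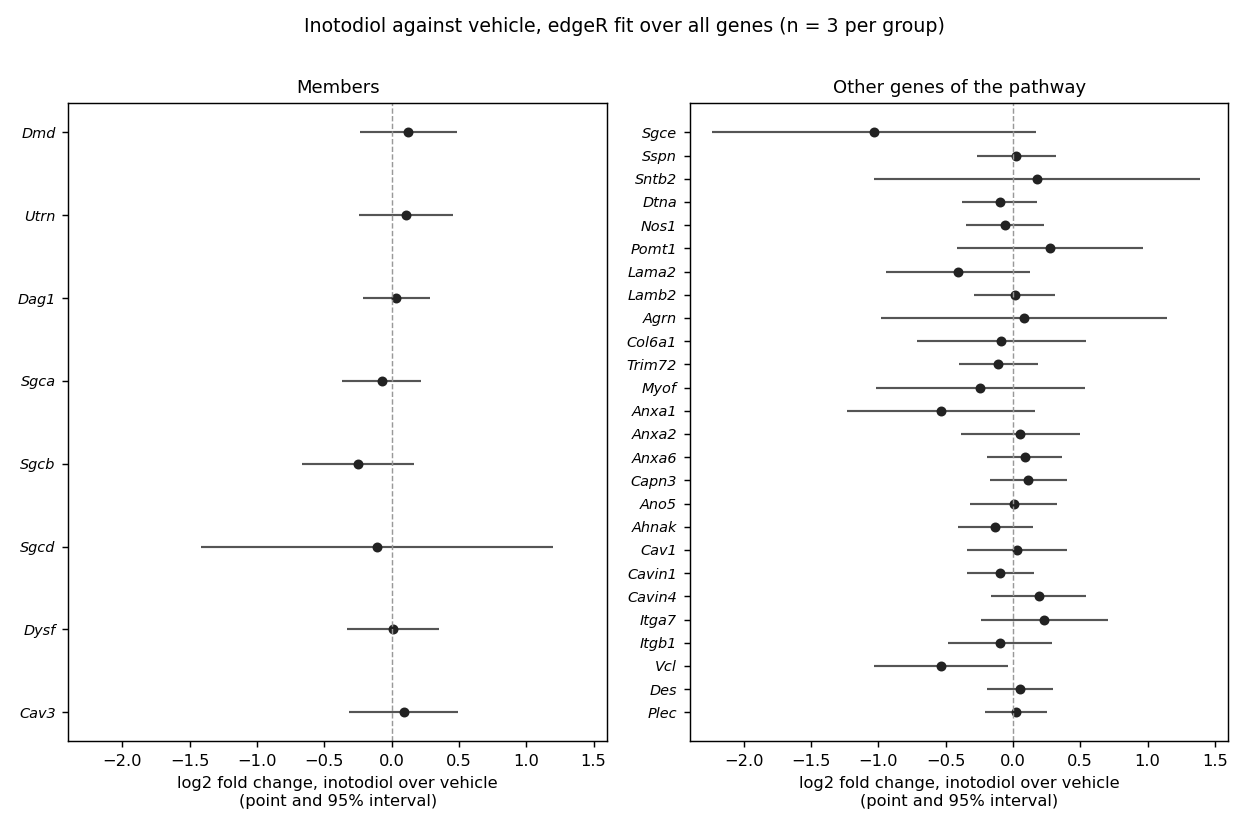
Log2 fold change of inotodiol over vehicle with its 95% interval for the 8 members (left) and for tested pathway genes named whatever their values (right). Every member interval crosses 0, and among the genes drawn on the right the interval of Vcl alone does not. Ilk, Csrp3, Lama4 and Chrna1 were named after their values were seen and are not drawn. Each of them had an unadjusted p under 0.05 in edgeR.

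Levels differed far more between the genes than between the groups. Levels of different genes are compared per kb of the longest principal transcript in GENCODE M21. On this scale the order of TMM-scaled CPM per kb was Sgca at 65.6, Dag1 at 56.9, Cav3 at 31.1, Dmd at 25.4, Sgcb at 11.8, Dysf at 9.10, Utrn at 6.78 and Sgcd at 1.35. The ranges over 6 libraries overlapped for Cav3 (27.2 to 38.1) with Dmd (19.6 to 31.4) and for Sgcb (9.42 to 15.7) with Dysf (8.06 to 10.0). These neighbours did not differ beyond their spread, and the other neighbours did not overlap. The sarcoglycans join in 1 complex, and their levels per kb spanned from 61.1 to 75.1 for Sgca down to 0.805 to 1.80 for Sgcd. The labels name a Lexogen Quant-Seq kit, and whether counts rise with transcript length in these libraries was not settled. The order is thus given on both scales, and neither is taken as the order of transcript number. Without division by length the order of means was Dmd at 379, Dag1 at 322, Sgca at 113, Utrn at 84.0, Dysf at 60.6, Sgcb at 44.7, Cav3 at 35.9 and Sgcd at 2.18 CPM. On this scale the ranges overlapped for Dmd (292 to 468) with Dag1 (307 to 339). They also overlapped for Dysf with Sgcb and for Sgcb with Cav3, so these neighbours did not differ beyond their spread. By mean, Dag1 kept the second place and Sgcd the last on both scales.

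**Figure D4:**
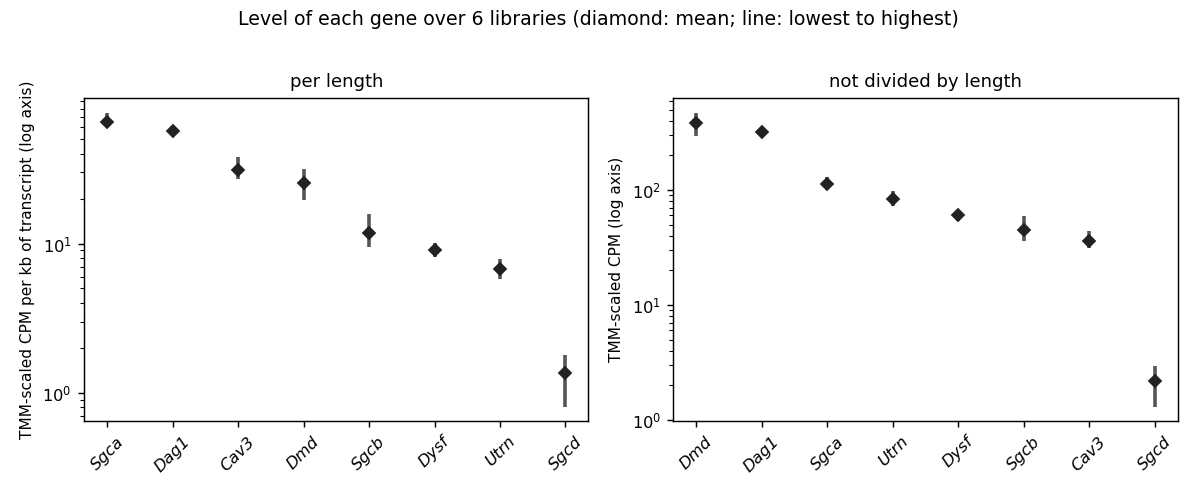
Level of each gene over the 6 libraries on a log axis, per kb of transcript (left) and without division by length (right); diamonds are means and lines run from the lowest to the highest library. By mean, Sgca leads per kb at 65.6 and Dmd leads without division at 379 CPM, where its range overlaps that of Dag1. Sgcd is last on both scales.

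The symbol Dmd spans a gene on the opposite strand, Tsga8, and Sgca spans Hils1. Both of these had 0 counts in all 6 libraries. Utrn, Sgcd and Dysf overlap annotated pseudogenes or antisense transcripts that were not in the tables used here. The strand setting of the counting is not given in the sources used here, so reads of such transcripts cannot be told apart from those of the members.

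The other subunits of the dystrophin complex formed a list of 12 genes, of which 7 were tested. None was called, 3 lay above 0 and 4 below, with a median log2 fold change of -0.061. At an unadjusted p under 0.05 there was 1 of 7 in edgeR, which was lower with inotodiol, against 4.87% of all genes tested. It is none of the genes named in this paragraph. The epsilon sarcoglycan gene Sgce, found in many cell types, had 64, 44 and 49 counts in vehicle and 14, 48 and 11 in inotodiol libraries. Inotodiol 1 and 3 were low and inotodiol 2 was within the vehicle range. Its log2 fold change was -1.03 ± 0.56 (unadjusted p 0.087, adjusted p 0.96 in edgeR). It was -2.03 without inotodiol replicate 2 and -0.67 without inotodiol replicate 3. Inotodiol 1 and 3 were also the lowest libraries for Sgcb. The genes whose products bind dystrophin from within the cell had intervals that crossed 0. The dystrobrevin gene Dtna had a log2 fold change of -0.099 ± 0.13 and Nos1, the neuronal nitric oxide synthase, stood at -0.061 ± 0.13. Sspn, which encodes the membrane protein sarcospan, stood at 0.023 ± 0.14. Sntb2 varied from 12 to 102 counts, with a log2 fold change of 0.18 ± 0.56. Sntb1 was listed at 0 counts in all libraries and Dtnb had at most 4, and neither was tested.

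Of 18 genes that build the sugar chain by which dystroglycan binds laminin, 16 were tested and none was called, with 9 above 0 and 7 below and a median of 0.041. Unadjusted p-values under 0.05 in edgeR numbered 0 of 16, against 4.87% of all genes tested. The mannosyltransferase gene Pomt1 had 64 to 131 counts per library and a log2 fold change of 0.28 ± 0.32.

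On the outer side, all 15 laminins and other basement membrane genes were tested and none was called. At an unadjusted p under 0.05 there was 1 of 15 in edgeR, Lama4, which was lower with inotodiol, against 4.87% of all genes tested. Lama4 was singled out after its value was seen. The list had 3 above 0 and 12 below, with a median of -0.13. The fibroblast genes lay below 0 in 8 of 8 cases beside it, with a median of -0.21, and vehicle 3 held the highest level of both lists. Of 9 macrophage genes 6 lay below 0, with a median of -0.44, and they too summed highest in vehicle 3, at 280.4 unscaled CPM against 61.6 to 182 elsewhere. The 7 Schwann cell genes tested all lay above 0, with a median of 0.35 and the highest sum, 205 unscaled CPM, in inotodiol 3. The part of these cells in the basement membrane values was not tested. Lama2, the laminin chain of the fibre's own basement membrane, had 23.5, 18.9 and 27.2 TMM-scaled CPM in vehicle and 19.2, 21.6 and 11.8 in inotodiol libraries. Its log2 fold change was -0.40 ± 0.25, and -0.58 to -0.19 with single libraries left out. Lamb2 stood at 0.015 ± 0.14, Agrn, the agrin gene, at 0.081 ± 0.49 and Col6a1 at -0.086 ± 0.29.

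Of 25 further genes of ferlins and membrane repair, 22 were tested and none was called, with 10 above 0 and 12 below and a median of -0.043. Trim72, whose product gathers vesicles at membrane wounds, had 1611 to 2126 counts per library and a log2 fold change of -0.11 ± 0.14. The dysferlin relative Myof stood at -0.24 ± 0.36. The annexins, which coat injured membrane, gave -0.53 ± 0.32 for Anxa1 (-0.72 to -0.17 with single libraries left out), 0.055 ± 0.20 for Anxa2 and 0.089 ± 0.13 for Anxa6. Capn3, the muscle calpain, stood at 0.12 ± 0.13 and Ano5, a membrane protein whose loss causes limb-girdle dystrophy, at 0.0070 ± 0.15. Ahnak, a large partner of dysferlin, stood at -0.13 ± 0.13. Unadjusted p-values under 0.05 in edgeR numbered 0 of 22 in this list, against 4.87% of all genes tested.

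All 8 genes of the caveolae list were tested, with 4 above 0, 4 below, none called and a median of -0.014. Cavin4 (Murc in the tables), the muscle cavin, had 76.6, 103 and 75.0 TMM-scaled CPM in vehicle and 84.1, 105 and 101 in inotodiol libraries, a log2 fold change of 0.19 ± 0.16. Like Cav3, it was high in vehicle 2 and inotodiol 3, and it was also high in inotodiol 2. Cavin1 (Ptrf in the tables), which coats caveolae in most cells, stood at -0.094 ± 0.12 and Cav1 at 0.030 ± 0.17.

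Integrins and costamere proteins form the parallel link of the fibre to its matrix. All 20 genes of this list were tested, with 12 above 0, 8 below, none called and a median of 0.043. At an unadjusted p under 0.05 there were 3 of 20, Ilk and Csrp3 higher and Vcl lower, against 4.87% of all genes tested; the first 2 were singled out after their values were seen. Vcl (chromosome 14, 20929398 to 21033676), which encodes vinculin, had 32.5, 44.3 and 36.4 TMM-scaled CPM in vehicle and 32.3, 28.6 and 17.2 in inotodiol libraries. For Vcl the groups did not overlap, as for 10.4% of all genes tested. They were parted only by vehicle 1 and inotodiol 1, which lay within 1 CPM of each other. Its log2 fold change was -0.54 ± 0.23, with an unadjusted p of 0.037 and an adjusted p of 0.96 in edgeR. Without inotodiol replicate 3, the lowest library, it was -0.31, and without inotodiol replicate 1 it was -0.72. The gene Ap3m1 overlaps its span on the opposite strand. Itga7, the laminin receptor of the fibre, stood at 0.23 ± 0.22 and Itgb1, its partner, at -0.094 ± 0.18. The intermediate filament gene Des stood at 0.052 ± 0.11 at 2226 ± 52.2 CPM in vehicle, and the cytolinker gene Plec at 0.023 ± 0.11.

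For each member, the gene whose pattern over the 6 libraries was most like it was sought among genes that averaged 10 CPM or more. Likeness was the root mean square difference of log2 CPM after each gene was centred on its own mean. The nearest gene was Wbp4 for Dmd (0.054), Aimp1 for Utrn (0.037), Tnnc2 for Dag1 (0.031) and Eif3d for Sgca (0.028). It was Aagab for Sgcb (0.036), Trim44 for Sgcd (0.095), Upf1 for Dysf (0.035) and Got1 for Cav3 (0.049). The median difference to all candidates ranged from 0.217 for Dag1 to 0.400 for Sgcd. No member was the nearest gene of another. Among the members alone the closest pair was Sgca and Dysf, at 0.085, and Dmd was closest to Utrn, at 0.15. With 6 libraries and 6623 candidates (6624 for Sgcd), near matches are easily found, and the values describe these libraries only.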

How the data were processed

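RNA of gastrocnemius muscle was sequenced in 6 mice, 3 per group. The deposited values are raw read counts per gene symbol. Per the submitters' processing notes the authors used Bowtie2 and bedtools with mm10. Tool versions, annotation and strand setting: not given in the sources used here. Libraries were made with a Lexogen Quant-Seq kit, per the labels' protocols. The members and gene lists were chosen with earlier results of these data known, and the genes named are all 8 members and a set of pathway genes, whatever their values; some of that set are not reported here. Chrna1, Lama4, Csrp3 and Ilk were named after their values were seen.

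Counts were filtered with edgeR's filterByExpr (minimum count 10, minimum total 15), scaled with TMM and tested with the quasi-likelihood test of edgeR 4.0.16 (R 4.3.3), two-sided, group as the only term, Benjamini-Hochberg adjustment over 11700 genes at 0.05. The test was also run on counts simulated with the spread fitted to these same libraries, and the outcome is not reported here. The p-values of edgeR set the group difference against the spread among 3 mice per group, with that spread moderated across genes. Standard errors and 95% intervals were taken from the model's information matrix and its moderated quasi-dispersion. Log2 CPM for the likeness measure had a prior count of 2. Positions and transcript lengths are from GENCODE M21 (GRCm38, the assembly of mm10), promoters from RefSeq. Scaling by RLE, upper quartile or library totals was tried instead, as were no filter or a stricter one (1 CPM in all 6 libraries), DESeq2 1.42.0, limma-voom (limma 3.58.1), a robust fit, the replicate number as a block, 0.1 as threshold, leaving out single libraries, 0.5 added to the counts of ratios, levels not divided by length, and a fit without Rn45s, hepatocyte and pancreas genes.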

Additional observations from a re-analysis of the deposited data

How the results depend on the processing

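No member was called under any of the 17 alternatives. Over all genes the count called was 0, but 95 with no filter on low counts, 1 with DESeq2. Leaving out 1 library at a time gave 0 to 25 genes, the most without inotodiol replicate 3. With the replicate block 0 genes and 0 members were called; the replicate numbers are not shown to pair mice, since deviations of same-numbered libraries correlated at -0.081, 0.11 and 0.022. Other scalings moved all genes together, and values near 0 changed sign with that shift. Upper-quartile scaling gave a log2 fold change of -0.0014 for Dysf and -0.0056 for Ano5. Library totals, which moved the median of all genes from -0.00073 to -0.12, gave -0.0011 for Dmd, -0.0096 for Utrn, -0.083 for Dag1, -0.10 for Dysf and -0.015 for Cav3. They gave -0.096 for Sspn, -0.099 for Lamb2, -0.032 for Agrn, -0.059 for Anxa2, -0.027 for Anxa6, -0.0012 for Capn3, -0.12 for Ano5, -0.088 for Cav1, -0.067 for Des and -0.095 for Plec. List medians moved down alike, to -0.18 for the other complex subunits and -0.16 for ferlins and membrane repair. Sntb2 was -0.33 with limma-voom and -0.17 with the replicate block. With single libraries left out the range was -0.013 to 0.30 for Dmd, -0.13 to 0.011 for Sgca, -0.32 to 0.14 for Sgcd, -0.063 to 0.091 for Dysf and -0.055 to 0.23 for Cav3. For the log2 ratio of Utrn to Dmd it was -0.12 to 0.12, and for Dysf to Cav3 -0.29 to 0.059. Among the other genes it was -0.049 to 0.063 for Sspn, -0.64 to 0.67 for Sntb2, -0.13 to 0.0097 for Nos1, -0.0020 to 0.51 for Pomt1, -0.072 to 0.12 for Lamb2, -0.20 to 0.36 for Agrn and -0.38 to 0.14 for Col6a1. It was -0.18 to 0.0078 for Trim72, -0.57 to 0.047 for Myof, -0.079 to 0.23 for Anxa2, -0.071 to 0.13 for Ano5, -0.071 to 0.15 for Cav1, -0.065 to 0.37 for Itga7, -0.26 to 0.023 for Itgb1 and -0.036 to 0.13 for Des. The cause of the changes with the tool, the block or a left-out library was not tested. Sgcb kept its sign in all 16 fits, from -0.42 to -0.077. Depth limits Sgcd, which had 12 to 27 counts.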

Other observations

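Some genes that act beside the dystrophin complex were singled out after their values were seen, and none passed edgeR's test over all genes. Chrna1 encodes the alpha subunit of the acetylcholine receptor at the neuromuscular junction. It had 236, 246 and 333 counts in vehicle and 202, 153 and 172 in inotodiol libraries. Its log2 fold change was -0.57 ± 0.20 (unadjusted p 0.014, adjusted p 0.94 in edgeR). Most of its list went the other way: of the 9 junction genes tested, 6 lay above 0 and 3 below, with a median of 0.17. Lama4, a laminin chain of vessels and of the junction, stood at -0.84 ± 0.31 (adjusted p 0.96). Csrp3, the muscle LIM protein, stood at 0.86 ± 0.30 (adjusted p 0.94), with 1958 counts in inotodiol 3 and 547 to 777 in the other libraries, and Ilk, the integrin-linked kinase, at 0.42 ± 0.15 (adjusted p 0.96). The 2 groups did not overlap for Chrna1, Lama4 and Ilk and overlapped for Csrp3. Groups that do not overlap were found for 10.4% of all genes tested. Of all genes tested, 4.87% had an unadjusted p under 0.05.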
